A study of Mus musculus with 16 samples.

Results

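The genes described here are 8 that nerve cells and the neuroendocrine cells of the airway are known for, namely Bex1, Bex2, Chl1, Grp, Calca, Uchl1, Scg5 and Ncam1, followed in the left lungs of adult mice. A probe set, the group of short oligonucleotides that reads 1 transcript on an Affymetrix array, was taken for a member where the platform annotation gave it exactly 1 symbol and that symbol, or a synonym with the same Entrez identifier, was one of the 8. This gave 16 of the 45037 probe sets of the table, from 7 of the 8 genes: 7 for Ncam1, 4 for Chl1 and 1 each for Bex1, Bex2, Grp, Uchl1 and Scg5. No probe set had Calca as its only symbol in the annotation used here, and this gene was not analysed. The genes were chosen with the differences between smoke and air in these same lungs known, so those differences are given below as descriptions. The fit over all probe sets includes the members, and its calls on them are no independent evidence. Where a gene had several probe sets, the one with the highest mean value stands for it unless another is named.

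The series held 16 left lungs of Balb/c mice at 23 weeks of age, 1 lung per array, in 4 groups of 4: females and males that were in utero while second-hand smoke (SHS) was given, and females and males that were in utero while filtered air was given. The smoke was sidestream smoke at 10 mg/m3 of particles, for 5 h on each of 7 days a week. Every mouse of all 4 groups was later sensitized to ovalbumin (OVA), a model allergen, with injections in weeks 19 and 21 of life, and inhaled it as an aerosol during weeks 22 and 23, so the air groups are allergic lungs as well. The sources used here do not say whether mice of a group were littermates, and p-values then measure the spread between these mice. SHS was set against air within each sex only. Values are the authors' log2 expression values, on which a step of 1 is a doubling; the number of arrays limits the precision, and in whole lung fewer cells of a type and less RNA per cell cannot be told apart.

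Pulmonary neuroendocrine cells are rare cells of the airway epithelium that lie singly or in clusters beside nerve endings and release peptides and amines when they sense changes in the air. Grp encodes gastrin-releasing peptide, the mammalian relative of bombesin, and Calca encodes calcitonin and the calcitonin gene-related peptide (CGRP), both held in their dense-core vesicles. Scg5 encodes 7B2, the chaperone of the prohormone convertase Pcsk2, Uchl1 the ubiquitin hydrolase PGP9.5 used to stain nerves and neuroendocrine cells, and Ncam1 and Chl1 adhesion proteins of the immunoglobulin superfamily. Bex1 and Bex2 are small adaptor proteins of the brain, and Bex1 is known to bind the neurotrophin receptor p75, which Ngfr encodes.

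The lungs carried the alveolar genes they should. The 11 measured markers of alveolar epithelium averaged 12.5 to 12.9 on the SHS arrays and 12.5 to 12.9 on the air arrays, with Sftpc, the surfactant protein C gene, at a mean of 15.1. Arrays of the same sex correlated at 0.990 to 0.998. The SHS female replicate 4 correlated least with its own group, at a mean of 0.992, and several values below are given with and without it. As a guide to the value of a probe set without its RNA, 9 probe sets of 3 Y-linked genes, Ddx3y, Eif2s3y and Kdm5d, had means of 2.88 to 4.82 on the female arrays (a check chosen after the values were seen). The median probe set of the arrays had a mean of 7.02.

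Bex1 and Bex2 are neighbours on the X chromosome. In the mouse assembly GRCm38.p6, Bex1 lies at chrX:136213972-136215513 and Bex2 at chrX:136066565-136068236, with 146 kb between them. The 250 bases before the RefSeq start of each gene, on the minus strand, are shown because both genes had lower means after SHS in both sexes.
Bex1, chrX:136215514-136215763: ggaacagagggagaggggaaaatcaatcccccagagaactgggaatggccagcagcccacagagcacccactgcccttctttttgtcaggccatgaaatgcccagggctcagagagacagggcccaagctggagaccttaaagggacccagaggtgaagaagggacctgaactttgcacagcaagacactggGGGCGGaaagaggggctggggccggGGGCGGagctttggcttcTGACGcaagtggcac
Bex2, chrX:136068237-136068486: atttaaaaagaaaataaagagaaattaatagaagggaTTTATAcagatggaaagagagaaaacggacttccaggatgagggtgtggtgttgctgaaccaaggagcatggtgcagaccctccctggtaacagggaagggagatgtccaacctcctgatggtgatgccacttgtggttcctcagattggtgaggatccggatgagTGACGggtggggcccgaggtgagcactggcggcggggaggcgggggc
Capitals mark matches, on either strand, to the motifs searched: the cyclic AMP response element TGACGTCA and its shorter core TGACG, which the whole element contains, the GC box GGGCGG and the TATA box TATAAA. Each window held 1 TGACG, 15 bases before the start of Bex1 and 47 bases before the start of Bex2, and 17.8% of the 32851 RefSeq windows of this length held one. The Bex1 window held 2 GC boxes, found in 32.7% of windows, and the Bex2 window a TATA box 213 bases before the start, found in 12.4%. Neither held TGACGTCA, found in 1.55% of windows. Set side by side without gaps, the windows matched at 24.8% of positions. Promoter windows were matched for 6 of the 8 genes, with RefSeq as the source.

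Bex1 was lower in SHS males than in air males by more than any other member in either sex. It had values of 8.62, 8.70, 7.99 and 7.35 in SHS males, against 9.82, 9.94, 10.35 and 9.99 in air males. All 4 SHS males lay below all 4 air males, with a gap wider than the spread among the air males. The difference was -1.86 ± 0.28 (model SE, n = 4 and 4), or 3.64-fold lower in SHS males. In females Bex1 had values of 8.19, 8.63, 8.57 and 7.71 after SHS, against 8.53, 8.16, 9.32 and 8.21 after air. These groups overlapped, and their difference of -0.28 ± 0.28 was no larger than its error, and -0.09 without the SHS female replicate 4. The male SHS arrays spread more widely than the male air arrays, at 8.16 ± 0.63 and 10.03 ± 0.23 (mean ± SD, n = 4 each).

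Bex2 had lower means after SHS in both sexes, by similar amounts. It had values of 8.60, 7.93, 8.11 and 9.47 in SHS females, against 9.01, 9.06, 9.11 and 9.16 in air females. All SHS females except replicate 4 lay below every air female, and replicate 4 lay above them all. The difference was -0.56 ± 0.23 with all arrays and -0.87 without the SHS female replicate 4. In SHS males Bex2 had values of 8.06, 8.25, 8.27 and 8.53, against 8.91, 8.53, 8.97 and 9.08 in air males, a difference of -0.59 ± 0.23. The male groups met at 8.53, where the highest SHS array and the lowest air array lay.

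Chl1, the close homologue of the adhesion molecule L1 (chr6:103510584-103733038), was higher after SHS in both sexes, by more than any other member. Its probe set 1435190_at had values of 7.88, 7.78, 7.50 and 6.84 in SHS males, against 5.51, 6.07, 5.08 and 5.48 in air males. The lowest SHS male lay above the highest air male, and the difference was 1.97 ± 0.26, or 3.91-fold higher in SHS males. In SHS females it had values of 6.09, 6.19, 6.46 and 5.19, against 4.58, 4.91, 5.11 and 5.01 in air females. These groups did not overlap either, although the SHS female replicate 4 lay close to the air arrays. The female difference was 1.08 ± 0.26, or 2.11-fold higher in SHS females, and 1.34 without the SHS female replicate 4.

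The other probe sets of Chl1 lay lower on the arrays and did not show these differences in full. The probe set 1417795_at, within the range of the Y-linked genes in females, had means of 3.70 ± 0.33 in SHS females and 3.26 ± 0.06 in air females, and of 3.85 ± 0.21 in SHS males and 3.56 ± 0.12 in air males (SD, n = 4 each). Its deviations from the group means followed those of 1435190_at across the 16 arrays at r = 0.76, a description over arrays that share their processing. The probe sets 1443713_at and 1447036_at had differences of 0.04 ± 0.08 and 0.06 ± 0.11 in females and of -0.03 ± 0.08 and -0.23 ± 0.11 in males. The mean of 1443713_at over all arrays, 2.99, also lay within the range of the Y-linked genes, where a change may not be visible. That of 1447036_at, 4.90, lay just above it. Averaged over its 4 probe sets, those at this low level included, the difference of Chl1 was 0.40 in females and 0.50 in males. Its size thus depends on the probe set taken.

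**Figure D1:**
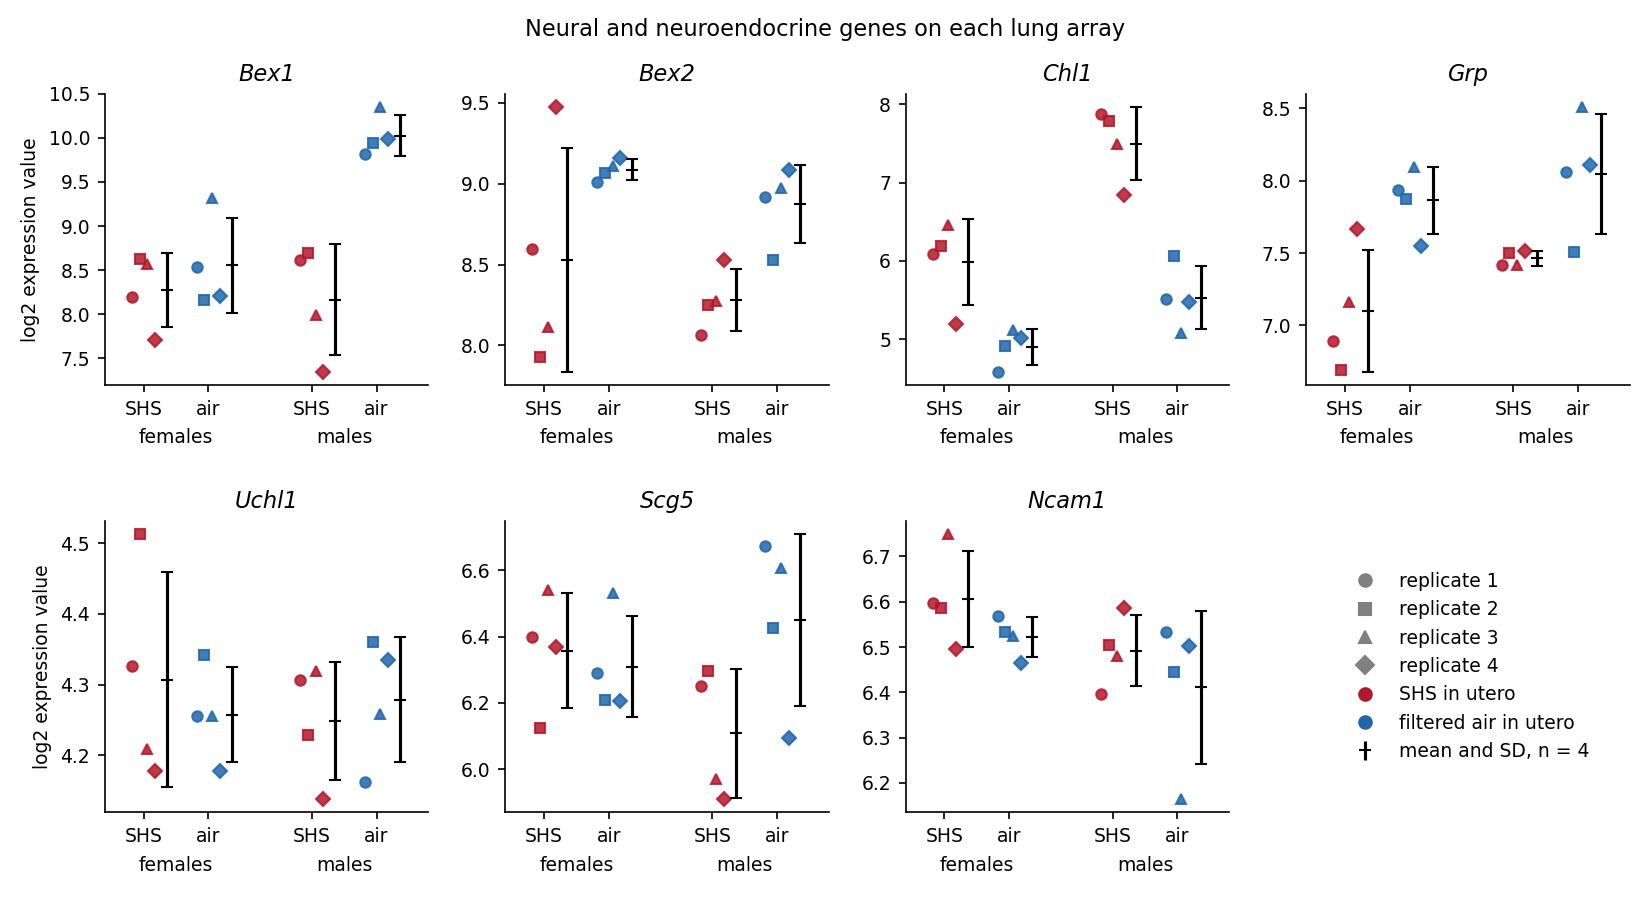
Log2 expression values of the 7 measured genes on each array, with SHS (red) left of air (blue) for females and then males, replicate numbers as symbols, and mean and SD (n = 4) beside each group. In males the SHS arrays of Bex1 lie below all air arrays and those of Chl1 above them, while Uchl1 and Ncam1 overlap in both sexes.

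Grp, the peptide gene of the neuroendocrine cell (chr18:65872751-65886599), was lower after SHS in both sexes. It had values of 6.89, 6.69, 7.16 and 7.67 in SHS females, against 7.94, 7.88, 8.10 and 7.55 in air females. The SHS female replicate 4 lay above the lowest air female and the other 3 below all air females. The difference was -0.76 ± 0.19, or 1.70-fold lower in SHS females, and -0.95 without the SHS female replicate 4. SHS males were tightly grouped at 7.42, 7.50, 7.42 and 7.51, against 8.06, 7.50, 8.51 and 8.11 in air males. The air male replicate 2 sat among the SHS males. The male difference was -0.58 ± 0.19, and -0.76 without the air male replicate 2.

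Some airway epithelial genes fell as well. Of all genes taken by 1 probe set each, 3.97% were called in females, 0.676% lower, and 6.63% in males, 2.47% lower. Of 9 measured club cell markers 2 were called lower in SHS females and 1 in SHS males, with median differences of -0.40 and -0.13, and none was called higher. All except Cldn10 had lower means in SHS females, and all except Cldn10, Scgb3a1 and Hp in SHS males. Scgb1a1 differed by only -0.02 in females and -0.003 in males. The mean of these 9 ranged over 12.0 to 12.4 in SHS females and 12.4 to 12.7 in air females, and over 12.0 to 12.4 in SHS males and 12.2 to 12.3 in air males. The secretoglobin Scgb3a2 fell by 0.84 in females (adjusted p = 0.00692 in limma, over all probe sets) and by 0.65 in males (adjusted p = 0.0251). None of 9 measured markers of ciliated cells was called in either sex (medians of -0.19 in females and -0.02 in males), and of 6 markers of basal and tracheal epithelium Ngfr was called, higher in males. The part of these airway genes in the Grp values was not tested.

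Scg5, Uchl1 and Ncam1 gave smaller differences. Scg5 (chr2:113776313-113829091) had values of 6.25, 6.30, 5.97 and 5.91 in SHS males, against 6.67, 6.43, 6.61 and 6.10 in air males. All 4 SHS males lay below the air mean, but the lowest air male lay among them, and the difference was -0.34 ± 0.13. In females Scg5 averaged 6.36 ± 0.17 after SHS and 6.31 ± 0.15 after air (SD, n = 4 each), a difference of 0.05 ± 0.13. Uchl1 (chr5:66676121-66687234), with a mean of 4.27 inside the range of the Y-linked genes in females, differed by 0.05 ± 0.08 in females and -0.03 ± 0.08 in males. At that level a change in the transcript may not be visible.

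The 7 probe sets of Ncam1 (chr9:49502129-49799393), whose protein is the neural cell adhesion molecule CD56, had means of 3.51 to 6.51. Their differences ran from -0.14 to 0.20 in females and from -0.13 to 0.32 in males. The highest of them, 1426864_a_at, had values of 6.60, 6.59, 6.75 and 6.49 in SHS females, against 6.57, 6.53, 6.52 and 6.46 in air females. In males it averaged 6.49 ± 0.08 after SHS and 6.41 ± 0.17 after air (SD, n = 4 each), and the groups overlapped in both sexes. The exception was 1426865_a_at in males, where the SHS arrays, at 5.34, 5.38, 5.14 and 5.20, lay above the air arrays, at 5.13, 4.88, 5.04 and 4.71, with a difference of 0.32 ± 0.13.

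**Figure D2:**
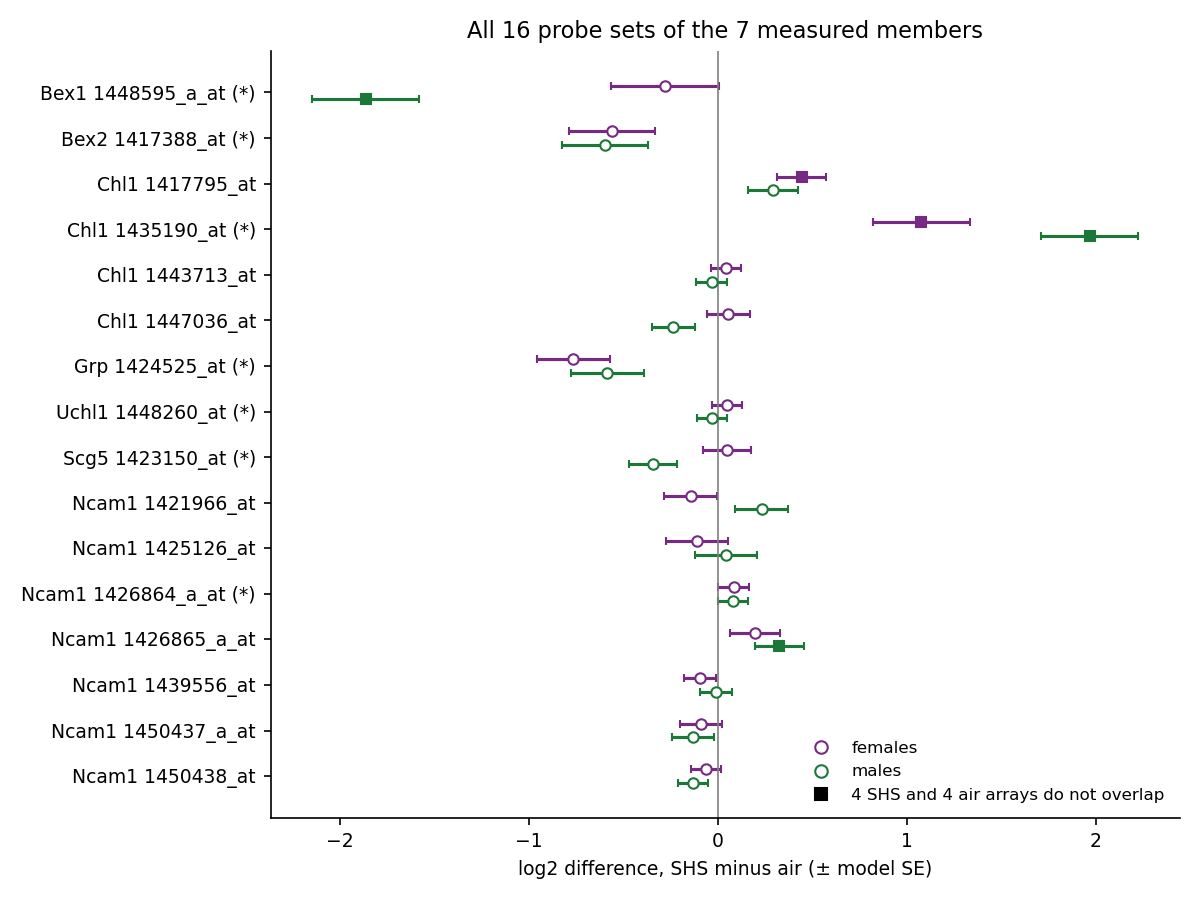
Log2 difference of SHS minus air with its model standard error for all 16 probe sets, in females (purple) and males (green); filled squares mark probe sets whose 4 SHS and 4 air arrays do not overlap, and (*) the probe set with the highest mean of its gene. Bex1 at -1.86 and Chl1 at 1.97 in males stand farthest from 0, and most Ncam1 probe sets lie within 0.2 of it.

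Over the whole table, 2.87% of probe sets were called in SHS females (adjusted p under 0.05 in limma), 2.36% higher and 0.517% lower, and 5.18% in SHS males, 3.07% higher and 2.11% lower. Of the 16 probe sets, 2 were called in females, Chl1 higher and Grp lower, and 2 in males, Chl1 higher and Bex1 lower. The female call of Chl1 was lost without any one of the air females or of the SHS females 1, 2 and 3, and that of Grp held in 6 of 16 such fits. The groups did not overlap for 2 of the 16 in females, both of Chl1, and for 3 in males, against 8.25% and 15.4% of all probe sets. Because the genes were picked with these differences known, the counts say nothing about neural genes as a class. The median difference of the 16 was -0.01 in females and -0.03 in males.

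The difference between the sexes in the SHS effect was largest in size for Bex1, at 1.58 ± 0.40 (females minus males), followed by Chl1 at -0.89 ± 0.36. It was 0.39 ± 0.18 for Scg5, -0.18 ± 0.27 for Grp, 0.04 ± 0.32 for Bex2, 0.08 ± 0.11 for Uchl1 and 0.00 ± 0.12 for Ncam1. In limma this contrast called 0 of the 45037 probe sets, Bex1 included, with 3709 (8.24%) at an unadjusted p under 0.05, and it called 0 under every alternative fit of it that was run. A different response of the sexes is therefore not shown for any of these genes.

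The stretch of the X chromosome from Bex2 to Bex3 (chrX:136066565-136271978) held 10 coding genes, of which 8 were measured. Tceal7, a transcription elongation factor A-like gene next to Bex1, fell in SHS males with a difference of -0.46 ± 0.11 (adjusted p = 0.0182 in limma), from group means of 3.49 in SHS males and 3.95 in air males that lie within the range of the Y-linked genes in females. In females it differed by -0.05 (adjusted p = 0.873). The other 5 measured neighbours were not called in either sex. Bex3, also known as the p75-associated cell death executor, differed by -0.01 in females and 0.12 in males (adjusted p = 0.977 and 0.462), and Bex4 by 0.09 and -0.03 (adjusted p = 0.740 and 0.908). Tceal8 and Tceal9 had differences of 0.17 and 0.05 in females and of 0.10 and 0.13 in males, and the RNA export factor gene Nxf3 of 0.14 in females and 0.07 in males. The low male values of Bex1 were thus not seen across the measured stretch. Bex6, a family member named by its list, rose by 0.34 in SHS males at a mean of 3.41 (adjusted p = 0.0486).

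**Figure D3:**
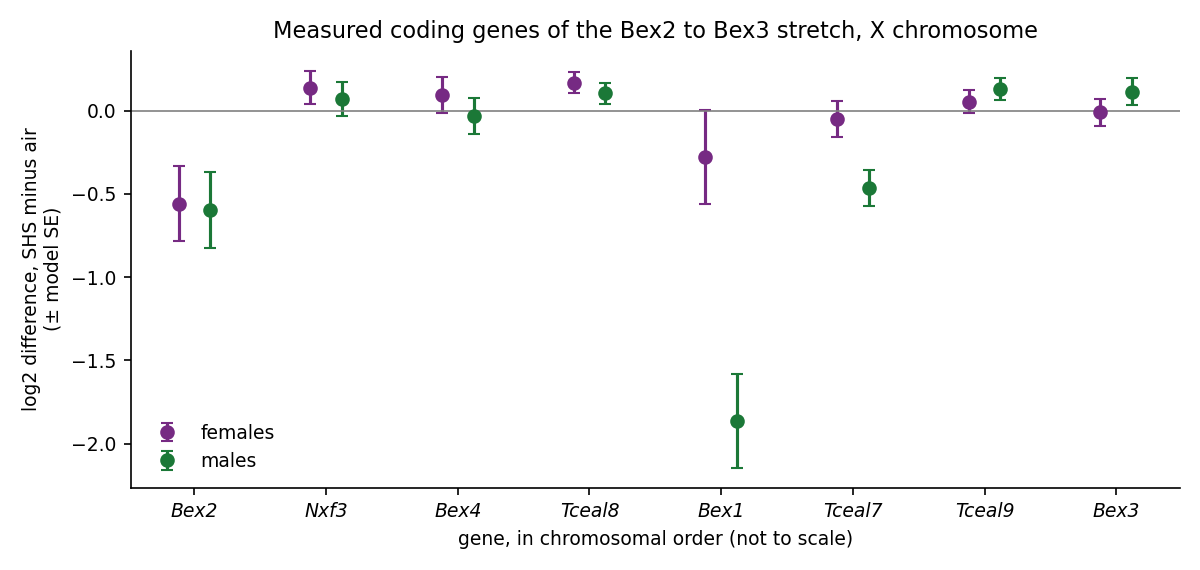
Log2 difference of SHS minus air with its model standard error for the 8 measured coding genes between Bex2 and Bex3, in chromosomal order, in females (purple) and males (green). Bex1 at -1.86 in males and Bex2 in both sexes lie below their neighbours. Only Bex1 and Tceal7, the latter at -0.46, were called, both in males, and Bex2 was called in neither sex.

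Around the members, 7 lists of related genes were drawn up, with 80 genes of which 70 were measured. In SHS females 1 of the 70 was called, lower, which is 1.43%, against 3.97% of all 18193 genes taken by 1 probe set each (3.29% higher and 0.676% lower). In SHS males 6 were called, 2 higher and 4 lower, which is 8.57%, against 6.63% of all genes (4.17% higher and 2.47% lower). The median difference of the 70 was -0.05 in females and 0.01 in males, and that of all genes was 0.00 and 0.01. The female count was 10, 2 higher and 8 lower, without the SHS female replicate 4, and 2 without the SHS male replicate 4 or the air female replicate 1. It was 0 without any one of the SHS females 1, 2 and 3, the SHS males 1, 2 and 3, the air females 2 and 3 or the air males. The male count fell to 1 without any one of the SHS male replicates 1, 2 and 3 or the air male replicates 1 and 3.

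Peptide receptors, the partners of Grp and CGRP, did not pass the test in either sex. None of 4 bombesin-like peptides and receptors was called: Grpr, the receptor of Grp, differed by 0.04 in females (adjusted p = 0.904) and 0.14 in males (adjusted p = 0.536), and neuromedin B, Nmb, by 0.01 and 0.06. None of 10 CGRP genes was called. Of all genes taken by 1 probe set each, 3.97% were called in females and 6.63% in males, so lists this short can hold no call. The receptor gene Calcrl differed by -0.11 and -0.08, and its partner Ramp1, which makes it a CGRP receptor, by 0.09 and 0.05. Ramp3, which makes it an adrenomedullin receptor, differed by 0.42 in females and 0.37 in males and just missed the threshold (adjusted p = 0.0530 and 0.0636 in limma). In several alternative fits Ramp3 was called higher, in each sex. Among them was the fit without the SHS female replicate 4 (adjusted p = 0.00502 in females, at 0.52, and 0.0281 in males). With quantile normalization it was called in neither sex.

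Vesicle genes did not pass the test either. None of 18 measured granins, convertases and vesicle proteins was called, with median differences of -0.07 in females and 0.00 in males. With 3.97% of all genes called in females and 6.63% in males, a list of this length can hold no call. Chga, the granin used to mark neuroendocrine tissue, averaged 4.61 in SHS females and 4.45 in air females, and 4.37 in SHS males and 4.43 in air males. Chga and Scg2, with means of 4.46 and 4.21 over all arrays, lay inside the range of the Y-linked genes in females. Scg2 differed by -0.07 and 0.14, Resp18, a peptide of endocrine vesicles, by -0.17 and 0.12, the convertase Pcsk1 by 0.08 and 0.28, and the carboxypeptidase Cpe by -0.12 and -0.25 (females and males). Pcsk2, the partner of the Scg5 protein, was not analysed here.

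Calls among adhesion and growth factor genes differed by list and sex. Of 15 adhesion genes 1 was called, lower in males. Of 13 measured neurotrophic genes 1 was called lower in females, and in males 1 was called higher and 2 lower. Of all genes taken by 1 probe set each, 3.97% were called in females and 6.63% in males. St8sia2, which builds polysialic acid on the Ncam1 protein, fell in SHS males, with group means of 7.52 in SHS males and 7.95 in air males (-0.44 ± 0.11, adjusted p = 0.0271 in limma). In females it differed by -0.38 (adjusted p = 0.0689), and by -0.46 without the SHS female replicate 4 (adjusted p = 0.0143). The other 14 genes of the adhesion list were not called, among them L1cam at -0.03 and 0.02, Ncam2 at 0.04 and 0.00 and the second polysialyltransferase St8sia4 at -0.12 and -0.27 (females and males). The mean of the adhesion list was lower after SHS without overlap. It ranged over 7.04 to 7.20 in SHS females and 7.22 to 7.28 in air females. In males it ranged over 7.26 to 7.34 after SHS and 7.35 to 7.41 after air. Among 13 measured neurotrophic genes Bdnf, the brain-derived neurotrophic factor, fell in SHS females, with group means of 7.91 in SHS females and 8.29 in air females (-0.38 ± 0.10, adjusted p = 0.0451). With 1 array left out this call remained in the fits without the SHS female replicate 4 or the SHS male replicate 4 and was lost in all others, and it was lost with the 8 female arrays alone. In males it differed by -0.34 (adjusted p = 0.0517). Ntrk3, the receptor of neurotrophin 3, and Ntf5, a ligand of the same family as Bdnf, fell in SHS males by 0.39 and 0.36 (adjusted p = 0.0274 and 0.0378). Ngfr rose there by 0.38 (adjusted p = 0.0403). Of the UCH family 3 genes were measured and none was called, and Uchl3 was not measured by a probe set of its own.

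**Figure D4:**
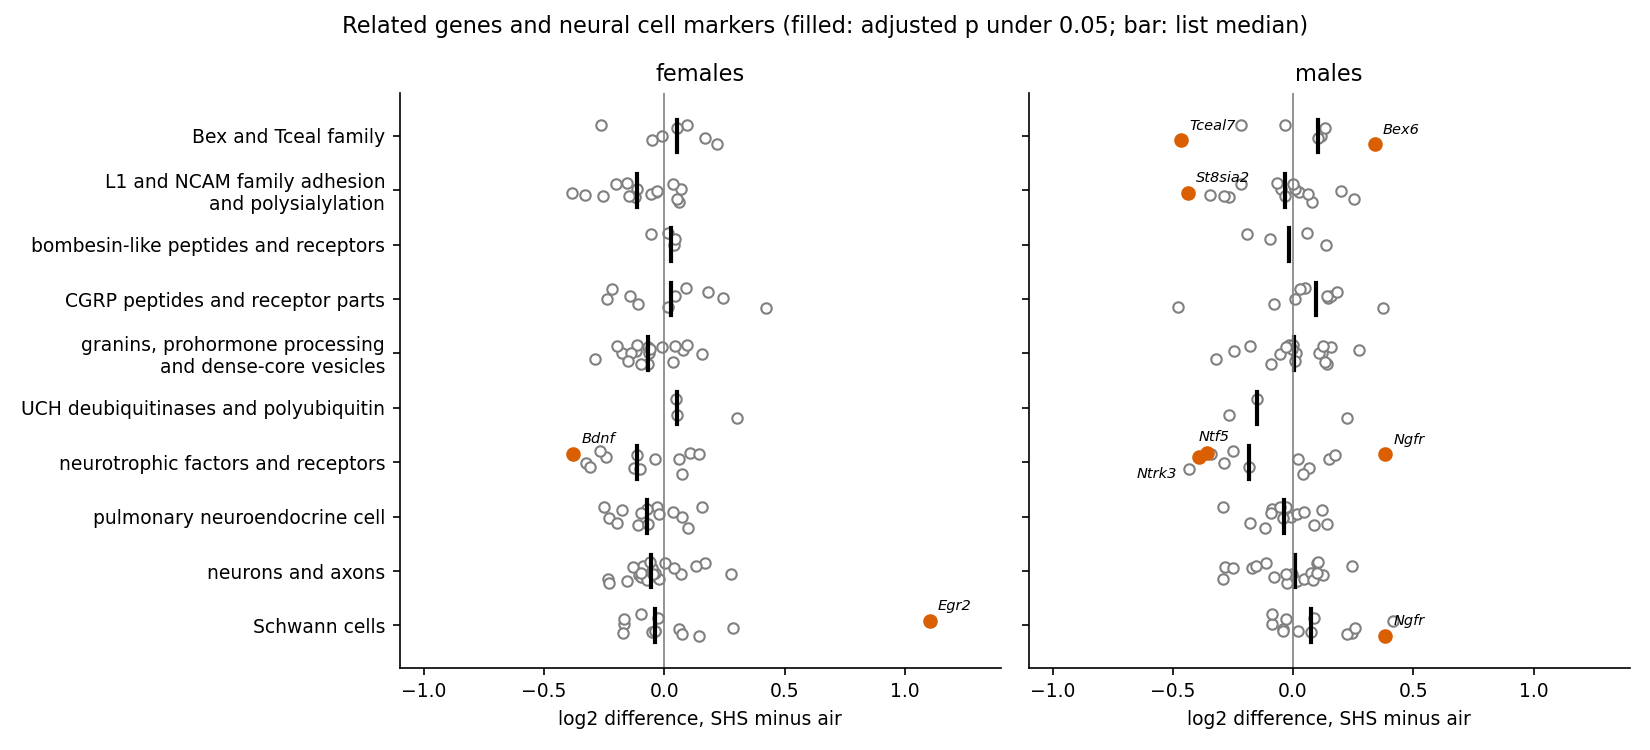
Log2 difference of SHS minus air for each measured gene of the 7 lists of related genes and of 3 neural marker lists, females on the left and males on the right; filled points have an adjusted p under 0.05 and bars are list medians. Most genes lie within 0.3 of 0, and the filled points fall among the Bex and Tceal family, polysialylation, neurotrophic and Schwann cell genes.

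Calls among markers of the cells themselves were counted as well. Of all genes taken by 1 probe set each, 3.97% were called in females and 6.63% in males. At these shares a short list can hold no call, so a list without one is not set apart from other genes. Of 14 measured markers of pulmonary neuroendocrine cells none was called in either sex, with medians of -0.07 in females and -0.04 in males, and none of 20 markers of neurons and axons, with medians of -0.06 and 0.01. Several of both lists lay inside the range of the Y-linked genes in females, where a change may not be visible. In the first list these were Insm1, Neurod1, Prox1, Chga and Scg2, at means of 3.82 to 4.55. In the second they were Tubb3, Elavl4, Nefl, Nefm, Nefh, Tac1, Vip, Trpv1 and Scn10a, at means of 3.42 to 4.68. The mean of the 14 ranged over 5.52 to 5.66 in SHS females and 5.56 to 5.72 in air females, and over 5.61 to 5.68 in SHS males and 5.59 to 5.79 in air males. Of 13 measured markers of Schwann cells, Egr2 rose in SHS females by 1.10 (adjusted p = 0.0102) and Ngfr in SHS males, and both genes are known from other cell types too. Sox10, the factor that defines this lineage, differed by -0.03 and 0.09 (adjusted p = 0.928 and 0.637). The mean of the 13 ranged over 8.37 to 8.42 in SHS males and 8.23 to 8.32 in air males, without overlap, and over 8.31 to 8.45 in SHS females and 8.30 to 8.34 in air females. The means of several other lists did not overlap either, among them the adhesion list in both sexes and the ciliated cell markers in females.

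Markers of other tissues that may be taken with a lung were followed for the same reason. Cardiac muscle genes had a median difference of 0.72 in males and 0.00 in females over 11 markers, of which Myh7 was called, lower in both sexes (-0.94 in males and -0.62 in females, adjusted p = 9.99e-05 and 0.00245 in limma). Their mean ranged over 8.87 to 9.31 in SHS males and 7.93 to 9.07 in air males. Of 5 measured thyroid and parathyroid genes Tg rose in both sexes (0.66 in females and 0.70 in males, adjusted p = 0.00685 and 0.00366) and the other 4 were not called. Of 7 proliferation markers 6 were called higher in each sex, with medians of 1.23 and 1.05. These marker genes were singled out after their values were seen, and the part of any of these lists in the values of Bex1, Bex2, Chl1 and Grp was not tested.

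Whether members varied together within groups was examined by pairs. Over 21 pairs of members, deviations from the 4 group means, which do not contain the SHS difference, were correlated across the 16 arrays, with two-sided permutation tests of 100000 permutations within groups. No pair passed after Benjamini-Hochberg adjustment, which with 16 arrays does not show that the members varied independently. The closest pair was Bex2 and Chl1, with Pearson's r = -0.78 (permutation p = 0.00535, adjusted 0.112) and Spearman's rho = -0.79 (permutation p = 0.00491, adjusted 0.103). It stood at -0.83 in females and -0.87 in males, at -0.73 without the 2 arrays farthest from the median of Bex2, SHS females 2 and 4, and at -0.51 without both SHS arrays numbered 4. The neighbours Bex1 and Bex2 had r = -0.53 (permutation p = 0.0150, adjusted 0.131) and rho = -0.52 (permutation p = 0.0484, adjusted 0.283), opposite in sign to their shared lower means, and r = -0.20 without both SHS arrays numbered 4. Those 2 arrays were the highest of their group for Bex2 and Grp and the lowest for Bex1, Chl1 and Uchl1, in females and in males.

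The genes most alike each member were sought among genes above the median level, by Pearson's r over the 16 arrays after each sex's mean was taken out. They were picked from many, and r is a description. This r still contains the difference between SHS and air, so differences like those of the member are partly built into the choice. Bex1 ran closest with Abca1, a cholesterol exporter (0.91), Tlr7, a receptor for single-stranded RNA (0.88), and Gpnmb, a glycoprotein of macrophages (0.88). Of these, Gpnmb differed by -1.61 in males and -0.31 in females, Abca1 by -0.57 and -0.06 and Tlr7 by -0.59 and -0.09. Chl1 ran with Chrna7, the alpha7 subunit of the nicotinic acetylcholine receptor (0.97), Il1r2, the decoy receptor of interleukin 1 (0.97), and Nars, an aminoacyl-tRNA synthetase (0.97). Chrna7 differed by 0.73 in females and 0.94 in males and Il1r2 by 0.74 and 1.08.

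Bex2 ran with Glul, the glutamine synthetase, Reps2 and Tmtc1 (0.97, 0.97 and 0.96), and these likenesses stood at 0.96, 0.96 and 0.95 in the deviations from the group means. Grp ran with Oip5os1, a long non-coding RNA, Wipf3 and Esm1, an endothelial proteoglycan (0.94, 0.92 and 0.92). Esm1 differed by -1.34 in females and -1.21 in males, Wipf3 by -0.31 and -0.42 and Oip5os1 by -0.19 and -0.14. Tmtc1 differed by -0.37 in females and -0.29 in males, Reps2 by -0.22 and -0.30 and Glul by -0.19 and -0.25. In the deviations from the group means the likeness of Bex1 was 0.73 with Abca1, 0.49 with Tlr7 and 0.70 with Gpnmb, and that of Chl1 was 0.93 with Chrna7. Uchl1 ran with Mplkip (0.86), Hsd3b3 (0.84) and Polr1c (0.83), Scg5 with 4930526I15Rik (0.90), Zfp182 (0.89) and Smc5 (0.86), and Ncam1 with Tm9sf4 (0.83), Sympk (0.82) and Trappc12 (0.82). The genes alike Uchl1, Scg5 and Ncam1 differed between SHS and air by -0.07 to 0.14 in females and by -0.28 to 0.07 in males.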

How the data were processed

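The authors deposited 1 log2 value per probe set and array of 16 Affymetrix Mouse Genome 430 2.0 arrays, 1 lung each, made from biotinylated cRNA per the labels. How probes were summarised and normalized was not stated in the sources used here; limma appears, with no role stated, per the submitters' processing notes. Values ran from 2.58 to 15.2, with array medians of 7.00 to 7.04, and were used as deposited. Of 45101 features 64 controls were left out. Exactly 1 symbol was given for 34945 probe sets, several for 932 and none for 9160; symbols were updated by Entrez identifier to RefSeq (GRCm38.p6).

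The 4 group means were fitted with limma 3.58.1 in R 4.3.3 (12 residual and 5.56 prior degrees of freedom), with two-sided moderated tests and Benjamini-Hochberg adjustment over 45037 probe sets in each contrast. In simulated data of 45037 probe sets, the fit recovered 75% of 1.5-fold changes in females and 81% in males, and 99% and 95% of 2-fold changes. In the simulation 100 probe sets were changed at each fold, noise was independent and normal, and no array was deviant. The rates therefore describe that setting and may differ from those in these arrays. Tests of list genes used 1 probe set per gene, the one with the highest mean. Plots used matplotlib 3.10.9 (Python 3.11.15).

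The members, and the lists of 80 related genes and 21 sets of cell type markers, were chosen with earlier results of these data known. Named genes were all members, a preset group of partner genes, up to 4 called genes with the largest difference per list and sex, and the 3 genes most alike each member; of the marker lists, the called or defining genes named, and the genes of the Bex2 to Bex3 stretch, were picked with their values in view. The alternatives tried comprised quantile normalization, median centring, the arrays of 1 sex, the replicate number as a block, array weights, a trended robust prior, a filter at the 40th percentile of means, other thresholds, the mean over a gene's probe sets, and arrays left out. Their use on the related genes was decided after seeing the data. Some items are not reported here.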

Additional observations from a re-analysis of the deposited data

Results flagged for a closer look

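In 64 groups of 4 arrays (16 probe sets by 4 groups), 2 arrays lay apart from the other 3 by Dixon's ratio at the critical value of 0.829, and chance gives about 1 in 20 such groups. Both were Ncam1 probe sets of low value. The SHS female replicate 1 lay low for 1425126_at, at 3.85, and the air male replicate 4 lay high for 1439556_at, at 3.57. For no member did a test of the difference show an SHS effect that differed between the sexes.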

How the results depend on the processing

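The differences of the 7 measured members kept their values within the spread between replicates under the alternatives run, except where all probe sets of a gene were averaged, which gave 0.40 and 0.50 for Chl1 in females and males and -0.031 for Ncam1 in females. With 1 array left out in turn, Bex1 in males ranged over -2.04 to -1.59, Chl1 over 1.82 to 2.19 in males and 0.92 to 1.34 in females, and Grp over -0.95 to -0.63 in females. Calls on the members, which were chosen on these differences, changed as follows. In females the call of Chl1 was lost without any one air female or SHS female 1, 2 or 3, that of Grp held in 6 of 16 fits with 1 array left out, and both were lost with the 8 female arrays alone. Bex2 was called in both sexes without the SHS female replicate 4, with array weights and without both SHS arrays numbered 4, and in males with the 8 male arrays alone. Grp was called in males with array weights and without the SHS female replicate 4 or the air male replicate 2, and Scg5 in males without the air male replicate 4. The filter on low values removed Chl1, Uchl1 and Scg5.

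Called probe sets numbered 1294 in females and 2332 in males. With 1 array left out they ranged over 657 to 3604 and 1073 to 3153. They numbered 448 in females with the 8 female arrays alone, 3985 and 4398 with array weights, 2334 and 4073 at an adjusted p under 0.10, 366 and 463 with at least 1.5-fold, and 3954 in females without both SHS arrays numbered 4. With quantile normalization 70.6% of female calls were higher, in place of 82.0%; with array weights 69.9%, and without the SHS female replicate 4 67.4%. Related genes called numbered 1 in females and 6 in males, and 0 to 10 and 1 to 8 with 1 array left out. In females they numbered 0 with the 8 arrays alone, 2 with the replicate block, 10 with array weights, 3 with the trended robust prior, 4 with the filter and 12 without both SHS arrays numbered 4; in males 13 with array weights. Deviations of same-numbered SHS and air arrays of a sex correlated at -0.08 to 0.27 in females and 0.02 to 0.12 in males. The replicate number as a block gave 1537 and 2439 called probe sets. These correlations did not compare same-numbered arrays between the sexes, so an effect of replicate number shared by females and males was not tested by them.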
